A study of Mus musculus with 2 samples.

Results

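Heat shock proteins and their co-chaperones were followed here through 10 genes, Hspa1a, Hspa1b, Hspb1, Hspa5, Hsp90aa1, Dnajb1, Hsph1, Cryab, Hspb8 and Bag3, which were chosen by symbol and make up 10 of the 19070 genes measured. All 10 were present in both sections. They were chosen with earlier results of these data known, so counts of members beside the share of all genes are a description only. Each of the 2 groups was a single coronal brain section from one male mouse, labelled C57Bl6 (C57BL/6J in the methods) and 3 months of age, taken 3 days or 28 days after injury. The injury was a controlled cortical impact (CCI), a model of head trauma made by driving a small piston into the brain surface on one side. Under the study's methods the mice had general and local anaesthesia, buprenorphine for pain, and a piece of skull taken out before the impact, and the labels give no other treatment. Spatial expression was measured with Visium HD, in which pairs of gene-specific probes are ligated on fixed tissue and counted as unique molecular identifiers (UMIs) in bins of 16 µm. No sham-operated or uninjured section was analysed here, so the reference was the opposite side of the same section. With 1 section per time point there was no replicate and no test. Intervals in brackets or after a value are 95% intervals for counting error alone, and levels at 3 and 28 days were set side by side without a test of their difference.

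Heat shock proteins bind unfolded or misfolded client proteins and keep them from aggregating. The HSP70 proteins work in a cycle: a J-domain protein delivers the client, and nucleotide exchange factors such as Hsph1 and Bag3 release it. HSP90 acts on nearly folded clients, the small heat shock proteins hold clients without using ATP, and Hspa5 (BiP) is the HSP70 of the endoplasmic reticulum. Heat shock factor 1 switches on many of the cytosolic members through heat shock elements, repeats of GAA in alternating orientation, whereas Hspa5 is switched on by the unfolded protein response through the ER stress response element. In the brain, Cryab is best known from oligodendrocytes, and Hspb1 and Hspb8 from reactive astrocytes and vessels.

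The promoter sequences are shown because Hspa5 belongs to another stress response than the cytosolic members, and because Hspa1a and Hspa1b are nearly the same gene. RefSeq windows of 300 bases (build GRCm38.p6, 250 bases before to 50 after the start) were at hand for 8 of the 10 members; Hsp90aa1 and Cryab had none. A heat shock element of 2 units was searched as GAANNTTC or TTCNNGAA, each of which reads the same on both strands, and one of 3 units as the same repeat carried on by a further unit after 2 more bases. The 2-unit form lay in a window of 6 of these 8 members (Hspa1a, Hspa1b, Hspb1, Hsph1, Hspb8 and Bag3) and of 17.0% of all 27025 genes, or in 15.1% of all 32851 windows. The 3-unit form, which contains the 2-unit form, lay in 1 member (Hsph1) and in 0.662% of genes. The ER stress response element, searched on both strands as CCAAT and CCACG with 9 bases between them, lay in 1 member (Hspa5) and in 0.137% of genes. No match of these letters was found in the windows of Dnajb1. Of the 6 members with the 2-unit form, Hspb1, Hspb8 and Bag3 were at least 2-fold higher in the lesion zone described below, in both sections. Hspa1a, Hspa1b and Hsph1 were 2-fold higher there in neither section. Whether these elements act in this tissue was not tested. In the lines that follow, capitals mark the match, and each sequence runs 5′ to 3′ on the strand of its gene. The first 5 lie before the transcript start from which the RefSeq window is counted, and the 30-base stretches of Hsph1, Hspb8 and Bag3 after those lie around or past it. The annotated gene of Hsph1, chr5:149616843-149636498, reaches farther upstream than that start and takes in both of its stretches.
Hspa1a, chr17:34972227-34972286, minus strand: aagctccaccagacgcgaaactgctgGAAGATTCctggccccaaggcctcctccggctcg
Hspa1b, chr17:34959309-34959368, minus strand: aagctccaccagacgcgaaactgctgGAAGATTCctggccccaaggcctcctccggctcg
Hspb1, chr5:135887786-135887845, plus strand: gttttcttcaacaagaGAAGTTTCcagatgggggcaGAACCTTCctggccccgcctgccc
Hsph1, chr5:149636337-149636396, minus strand: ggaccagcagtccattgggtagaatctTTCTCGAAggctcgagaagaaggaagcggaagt
Hspa5, chr2:34772005-34772064, plus strand: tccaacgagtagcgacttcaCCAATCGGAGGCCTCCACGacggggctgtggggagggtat
Hsph1, chr5:149636287-149636316, minus strand: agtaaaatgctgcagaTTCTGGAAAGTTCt
Hspb8, chr5:116422844-116422873, minus strand: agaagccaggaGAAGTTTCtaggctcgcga
Bag3, chr7:128523603-128523632, plus strand: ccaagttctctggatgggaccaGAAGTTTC

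The stretches of Hspa1a and Hspa1b are letter for letter the same, and their whole windows shared 296 of 300 bases. Their annotated transcripts shared 99.3% of 2197 aligned bases. A probe can therefore be hard to assign to one of the pair, and values for either gene are uncertain as to which of them they count. The genes lie next to each other on chromosome 17, at chr17:34969359-34972156 (Hspa1a) and chr17:34956429-34959238 (Hspa1b).

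The section at 3 days held 120615873 UMIs in 121967 bins (median 836 per bin) and that at 28 days 82422389 UMIs in 105589 bins (median 596 per bin). A lesion zone was drawn on the injured side from 6 macrophage genes, none of them a member, as tiles of 64 µm whose smoothed share of these genes was over the 99th percentile of the opposite side. It took in 8384 bins at 3 days and 13559 bins at 28 days, and its mirror image across the midline gave a mirrored area (mirror zone in the plots) of 8555 and 12447 bins. A zone bin held fewer UMIs than a mirrored one (means of 602 and 935 at 3 days, 528 and 642 at 28 days), so levels were taken as CPM, the UMIs of a gene scaled to the total UMIs of the same area. The zone rule used macrophage genes, so the microglial list is no finding there. The zone and the mirrored area also differed in tissue. Tiles with a white matter signature made up 50.2% of the zone and 24.7% of the mirrored area at 3 days, and 48.6% and 36.1% at 28 days. Tiles with a striatum signature made up 9.17% of the zone and none of the 555 tiles of the mirrored area at 3 days, which held 12.1% thalamus tiles (none in the zone) and 8.65% tiles of the CA3 layer of the hippocampus (none in the zone). At 28 days striatum made up 4.87% and 10.98%, and thalamus 12.2% and 31.6%. The summed neuronal markers (8 of 8 detected in all areas) stood at 3050 CPM in the zone and 10302 CPM in the mirrored area at 3 days, and at 3981 and 9551 CPM at 28 days. In tissue, fewer cells of a type and less RNA per cell cannot be told apart.

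At 3 days, Bag3, Hspb1, Hspb8 and Cryab were at least 2-fold higher in the lesion zone than in its mirrored area, 4 of the 10 members, and none was 2-fold lower. Of the 13565 genes with at least 20 UMIs over the 2 areas, 17.4% were 2-fold higher and 8.84% 2-fold lower. At 28 days, Hspb1, Hspb8 and Bag3 were 2-fold higher and Hsph1 2-fold lower, against 16.5% and 8.16% of 13619 genes. The median log2 ratio of the 10 members was 0.74 at 3 days and 0.21 at 28 days, and that of all genes tested was 0.13 and 0.00014. The counts at 3 days depended on the scale and the reference. With UMIs per bin in place of CPM, which moves the log2 ratio of every gene by -0.64, 1 member was 2-fold higher and 2 were lower, against 9.05% and 24.1% of all genes. Against the opposite side weighted to the regions of the zone, 2 were higher (Hspb1 and Bag3), where 10.1% of all genes were.

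**Figure D1:**
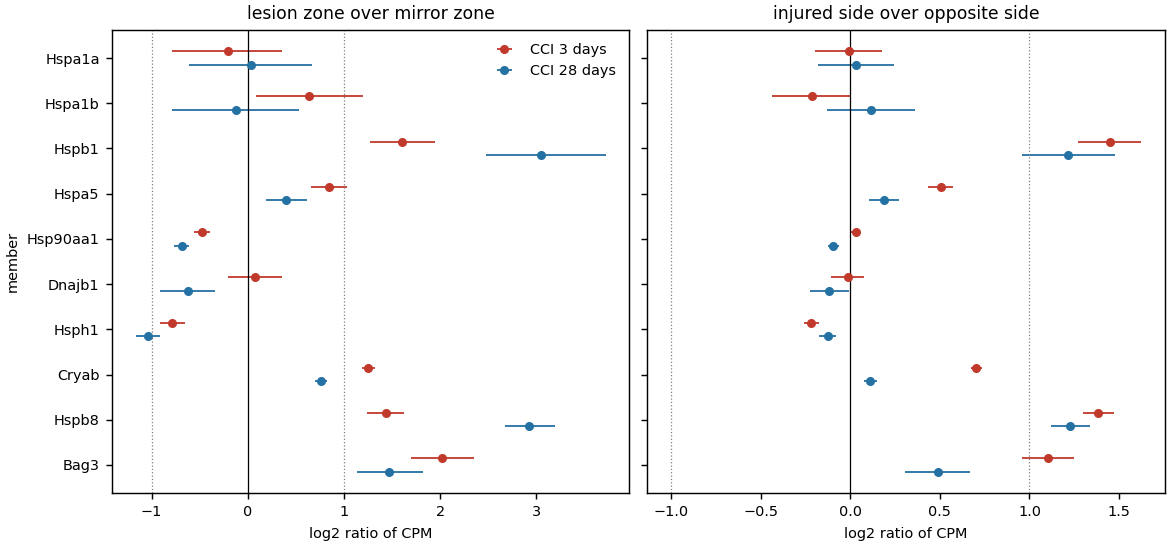
Log2 ratio of CPM for each member, lesion zone over mirrored area (left) and injured side over opposite side (right), in the sections at 3 days (red) and 28 days (blue). Bars are 95% intervals for counting error and dotted lines mark 2-fold. Hspb1 and Hspb8 lie at 3.05 and 2.93 in the zone at 28 days, and Hsph1 at -1.04.

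Hspb1 encodes HSP27, a small heat shock protein that binds clients and actin filaments. In the zone at 3 days it stood at 41.8 CPM (36.4 to 47.9, 211 UMIs) and in the mirrored area at 13.7 CPM (11.3 to 16.6, 110 UMIs) (log2 ratio 1.60, 1.27 to 1.95). At 28 days the values were 27.4 CPM (23.7 to 31.5, 196 UMIs) and 3.25 CPM (2.13 to 4.77, 26 UMIs) (log2 ratio 3.05, 2.48 to 3.72). The zone was thus above the mirrored area in both sections, with intervals that did not overlap. Against the opposite side weighted to the regions of the zone, the ratio at 28 days was 1.70. Its UMIs were spread out: the 10 tiles with most of them held 19.0% of the zone's Hspb1 UMIs at 3 days and 14.8% at 28 days.

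Hspb8 encodes HSP22, a small heat shock protein that forms a complex with Bag3 and sends clients to autophagy. It stood at 119 CPM (109 to 128.4, 598 UMIs) in the zone and 43.9 CPM (39.4 to 48.7, 351 UMIs) in the mirrored area at 3 days (log2 ratio 1.43, 1.24 to 1.63). At 28 days it stood at 137 CPM (129 to 146, 983 UMIs) against 18.0 CPM (15.2 to 21.2, 144 UMIs) (log2 ratio 2.93, 2.68 to 3.19). The zone levels of the 2 sections differed less than the levels of the mirrored areas. The mirrored area at 28 days held 0.379% choroid plexus tiles, 0.758% ependyma tiles and 0.253% meninges tiles, against 2.16%, 5.41% and 2.52% at 3 days. These are regions where Hspb8 was high on the opposite side. The zone itself held 0.519%, 3.29% and 7.44% of them at 3 days, and 0%, 3.43% and 4.32% at 28 days. Their part in the ratios was not tested. Without such tiles the log2 ratios were 1.65 at 3 days and 2.54 at 28 days, and against the opposite side weighted to the regions of the zone they were 0.997 and 1.66.

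Bag3, the nucleotide exchange factor that pairs HSP70 with Hspb8, showed a log2 ratio of 2.01 (1.69 to 2.35) at 3 days, from 54.7 CPM (276 UMIs) in the zone and 13.5 CPM (108 UMIs) in the mirrored area. At 28 days its level was 35.5 CPM (254 UMIs) against 12.8 CPM (102 UMIs) (log2 ratio 1.47, 1.14 to 1.82). Unlike for Hspb8, the 2 mirrored areas were close, and the zone level was the lower one at 28 days. Against the region-weighted opposite side its ratios were 1.34 and 0.88, the latter within 2-fold.

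Cryab encodes αB-crystallin, a small heat shock protein of glia and muscle. It reached 782 CPM (758 to 807, 3946 UMIs) in the zone and 328 CPM (315 to 341, 2624 UMIs) in the mirrored area at 3 days (log2 ratio 1.25, 1.18 to 1.33). At 28 days the levels were 772 CPM (5529 UMIs) and 456 CPM (3642 UMIs) (log2 ratio 0.76, 0.70 to 0.82). The zone levels differed little between the sections. The summed oligodendrocyte markers, with 7 of 8 genes 2-fold higher in the zone at 3 days and 0 of 8 at 28 days, stood at 10171 CPM in the zone and 3536 CPM in the mirrored area at 3 days, and at 6234 and 6198 CPM at 28 days. None of these markers was at 0. Against the opposite side weighted to the regions of the zone, the ratio of Cryab was 0.27 at 3 days and 0.47 at 28 days.

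Hsph1 and Hsp90aa1, the HSP110 exchange factor and the inducible cytosolic HSP90, were lower in the zone in both sections. Hsph1 stood at 129 CPM (650 UMIs) in the zone and 222 CPM (1775 UMIs) in the mirrored area at 3 days (log2 ratio -0.78, -0.92 to -0.65). At 28 days the levels were 104 CPM (743 UMIs) and 213 CPM (1703 UMIs) (log2 ratio -1.04, -1.16 to -0.91), which lay just past 2-fold and was within it under several alternatives. Hsp90aa1 had 307 CPM (1547 UMIs) against 426 CPM (3410 UMIs) at 3 days and 272 CPM (1949 UMIs) against 439 CPM (3504 UMIs) at 28 days, with log2 ratios of -0.47 (-0.56 to -0.39) and -0.69 (-0.77 to -0.61). Neuronal markers were lower in the same tiles: 8 of 8 were 2-fold lower at 3 days and 6 of 8 at 28 days. Their part in these ratios was not tested.

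Hspa5 lay between these groups. It stood at 95.7 CPM (483 UMIs) in the zone and 53.4 CPM (427 UMIs) in the mirrored area at 3 days (log2 ratio 0.84, 0.65 to 1.03). At 28 days it had 56.3 CPM (403 UMIs) and 42.7 CPM (341 UMIs) (log2 ratio 0.40, 0.19 to 0.61). Dnajb1, a J-domain partner of HSP70, had a ratio of 0.08 (-0.21 to 0.36) at 3 days, with 34.5 CPM (174 UMIs) and 32.7 CPM (262 UMIs), so no difference was detectable at this depth. At 28 days it was lower, with 22.6 CPM (162 UMIs) against 34.8 CPM (278 UMIs) and a ratio of -0.62 (-0.91 to -0.34).

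The inducible HSP70 genes were sparse, with 1101 UMIs of Hspa1a and 881 of Hspa1b in the whole section at 3 days, and 736 and 556 at 28 days. Hspa1a had 42 UMIs in the zone and 77 in the mirrored area at 3 days (log2 ratio -0.20, -0.79 to 0.35), and 42 and 46 at 28 days (0.03, -0.61 to 0.66). Hspa1b had 57 and 58 UMIs at 3 days (0.64, 0.09 to 1.19) and 37 and 45 at 28 days (-0.12, -0.79 to 0.54). Only the interval of Hspa1b at 3 days left out 0, and neither gene passed 2-fold. Over 13 alternatives this ratio of Hspa1b lay between 0.0043 and 1.61, and it passed 2-fold in 2 of them. In the section at 3 days, 22 bins held a UMI of both genes, where the product of their bin counts (1059 and 846) would give 7.49. At 28 days 13 bins did, for 3.73. This product takes all bins as alike, although bins differed in total UMIs and levels differed between regions. A UMI may also be assigned to either gene of the pair. Whether the genes were expressed together was not tested.

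The members were then followed by distance from the lesion. Bins were grouped by how far they lay from the border between the zone and other tissue, and each group was compared with the mirrored positions on the opposite side. The array held less of the injured side, and the mirrored bands outside the zone at 3 days held more bins (10868, 8296, 14086 and 25697, from the nearest to the farthest) than those of the injured side (6075, 4060, 6024 and 9103). The bands also differed in tissue, and in the farthest one at 3 days the oligodendrocyte markers summed to 3205 CPM against 1821 CPM mirrored. The ratios were therefore also taken over positions with tissue on both sides, called partnered bins (6006, 4004, 6022 and 9042 on each side at 3 days, and 7552, 6002, 6920 and 6043 at 28 days). The deepest part of the zone, over 250 µm inside its border, held 2319 bins at 3 days and 5441 at 28 days. Edges of the array or of the tissue were not taken as a border, so bins there could count as deep. In the first 250 µm outside the zone, Hspb8 and Hspb1, 2 of the 10 members, were 2-fold higher at 3 days, against 12.3% of all genes. The same 2 members were 2-fold higher there at 28 days, against 6.99%. In partnered bins Hspb8 and Hspb1 were again the members past 2-fold in this band, at 1.72 and 1.23 at 3 days and at 2.00 and 1.37 at 28 days.

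**Figure D2:**
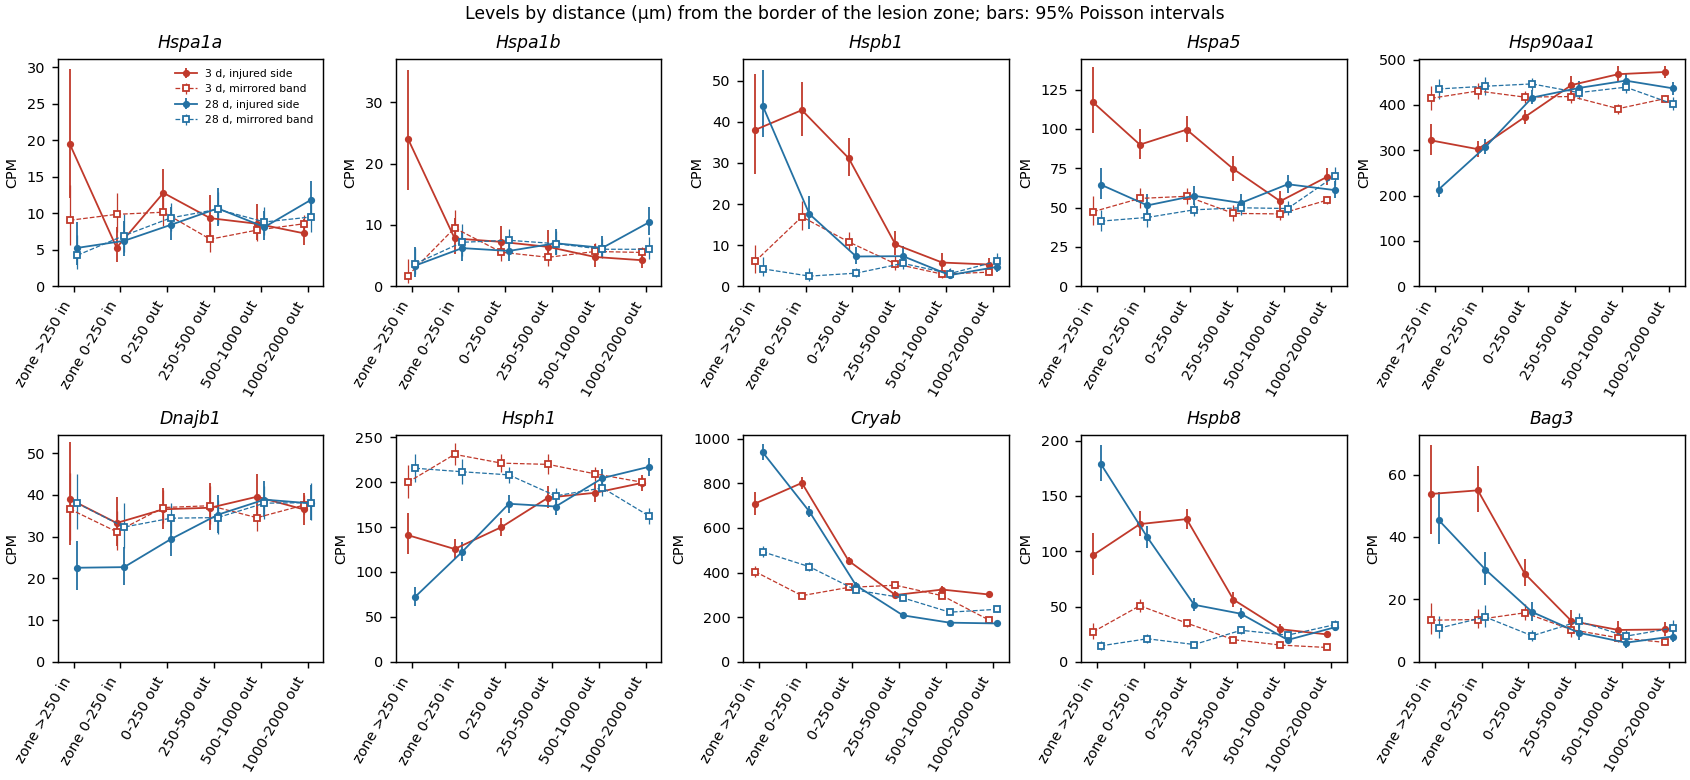
CPM of each member by distance (µm) from the border of the lesion zone, with bands inside the zone at the left and bands outside it at the right. Filled points and solid lines are the injured side, open squares and dashed lines the mirrored bands, red 3 days and blue 28 days, and bars 95% Poisson intervals. Hspb8 at 3 days is at 129 CPM just outside the zone against 35.0 CPM mirrored, and Hsph1 at 28 days is at 72.5 CPM deep in the zone against 215 CPM.

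Hspb8 at 3 days was as high outside the border as inside it. Its levels were 96.4 CPM (78.8 to 117) deep in the zone, 125 CPM (114 to 136) near the border, and 129 CPM (120 to 138) in the first 250 µm outside. From there they went down to 56.2, 29.5 and 24.8 CPM at 250 to 500, 500 to 1000 and 1000 to 2000 µm. The mirrored bands outside stood at 35.0, 20.1, 15.2 and 12.99 CPM, with a log2 ratio of 0.93 (0.69 to 1.17) in the farthest band. In partnered bins the 4 ratios outside the zone were 1.72, 1.92, 1.84 and 0.89, the last with an interval of 0.56 to 1.22. At 28 days Hspb8 was highest deep in the zone, at 179 CPM (163 to 196) against 14.5 CPM mirrored (log2 ratio 3.62, 3.21 to 4.08). It then stepped down to 113 CPM near the border, and to 51.6, 43.5, 19.8 and 31.1 CPM outside it. Beyond 500 µm the intervals of its ratio included 0 (-0.29 and -0.11). In partnered bins the same 2 bands were at -0.34 (-0.72 to 0.03) and 1.07 (0.72 to 1.44), so the farthest value at 28 days depended on which bins were taken.

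Hspb1 and Bag3 were also lower outside the zone than in it. At 3 days Hspb1 was at 38.0 CPM deep in the zone, 42.8 CPM near the border and 31.2 CPM in the first 250 µm outside, then at 10.2, 5.77 and 5.29 CPM. Its mirrored bands outside were at 10.8, 5.45, 2.96 and 3.43 CPM. At 500 to 1000 µm its ratio was 0.97 (0.26 to 1.67), and 0.55 (-0.25 to 1.40) in partnered bins. In the farthest band it was 0.63 (0.11 to 1.13), and -0.036 (-0.63 to 0.56) in partnered bins. At 28 days Hspb1 was at 44.0 CPM (36.4 to 52.7) deep in the zone and 17.6 CPM (13.9 to 21.9) near its border, with 7.24 CPM in the first band outside. Farther out it was at 7.32, 2.71 and 4.70 CPM, against 5.57, 3.07 and 6.04 CPM mirrored. The intervals of these ratios included 0. In partnered bins the farthest ratio was 0.89 (0.07 to 1.78). Bag3 was flat within the zone at 3 days, at 53.8 and 54.9 CPM, and at 28.3 CPM in the first band outside against 15.7 CPM mirrored (log2 ratio 0.85, 0.52 to 1.18). At 28 days it went from 45.5 CPM (37.7 to 54.3) deep in the zone to 29.6 CPM (24.8 to 35.1) near the border and 15.96 CPM in the first band outside. Farther out Bag3 stood at 13.1, 10.2 and 10.4 CPM at 3 days and at 9.30, 6.15 and 8.11 CPM at 28 days. It was above its mirrored band in the farthest one at 3 days (log2 ratio 0.74, 0.37 to 1.10) and below it at 250 to 500 µm at 28 days (-0.48, -0.96 to -0.02). In partnered bins these 2 intervals included 0 (0.18, -0.26 to 0.62, and -0.45, -1.03 to 0.11). Marker sums also differed between the 2 bands in the zone and the first outside. Fibroblast markers stood at 696 (17.2 mirrored), 481 and 388 CPM at 3 days, and at 669 (35.7 mirrored), 202 and 94.9 CPM at 28 days. Astrocyte markers stood at 3886, 6426 and 4836 CPM at 3 days, and at 10723, 9737 and 3567 CPM at 28 days. The part of these cells in the levels of Hspb8, Hspb1 and Bag3 was not tested.

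Hspa5, too, was above its mirrored bands at 3 days. Its level was 117 CPM (97.3 to 139) deep in the zone, 90.0 CPM (80.9 to 99.8) near the border and 99.5 CPM (91.7 to 108) in the first 250 µm outside, and 74.5 CPM (67.0 to 82.6) from 250 to 500 µm. The mirrored bands stood between 46.3 and 57.2 CPM. The log2 ratios in these 4 bands were 1.30, 0.69, 0.80 and 0.69, and in the 2 bands farther out 0.23 and 0.35. In partnered bins the latter were 0.10 (-0.14 to 0.33) and -0.015 (-0.17 to 0.14). At 28 days the ratio was 0.64 (0.32 to 0.97) deep in the zone, where Hspa5 was at 64.6 CPM against 41.4 CPM, and 0.23 (-0.05 to 0.52) near the border. Outside the zone at 28 days its ratios were 0.24 (0.05 to 0.44), 0.09 (-0.12 to 0.29), 0.39 (0.21 to 0.57) and -0.19 (-0.37 to -0.02), with no steady gradient. In partnered bins the last of these was -0.14 (-0.34 to 0.07) and the first 0.28 (0.05 to 0.52).

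Hsph1 and Hsp90aa1 were lowest in the zone. At 28 days Hsph1 was at 72.5 CPM (62.6 to 83.5) deep in the zone, 122 CPM near the border, and 176, 173, 204 and 217 CPM in the bands outside. In the farthest of these it was above its mirrored band (log2 ratio 0.42, 0.32 to 0.53), also in partnered bins (0.33, 0.21 to 0.45). Hsp90aa1 was at 213 CPM (196 to 232) deep in the zone, 307 CPM near the border and 416 CPM in the first band outside. Against their mirrored bands the deepest values gave log2 ratios of -1.57 (-1.81 to -1.34) and -1.03 (-1.17 to -0.89). In this deepest band the summed neuronal markers were at 2063 CPM against 9566 CPM mirrored. Hsph1 at 3 days was at 141 CPM deep in the zone, 126 CPM near the border, and 150, 183, 188 and 199 CPM outside. Its log2 ratios outside were -0.56 (-0.68 to -0.45), -0.27 (-0.39 to -0.15), -0.15 (-0.25 to -0.05) and -0.007 (-0.08 to 0.07). In partnered bins they were -0.72, -0.47, -0.32 and -0.11, all with intervals below 0. At 3 days Hsp90aa1 was above its mirror in the 3 bands beyond 250 µm outside the zone, with log2 ratios of 0.08 (0.003 to 0.17), 0.26 (0.19 to 0.32) and 0.19 (0.14 to 0.24). In partnered bins these were 0.010 (-0.084 to 0.10), 0.095 (0.016 to 0.17) and 0.19 (0.12 to 0.25).

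The inducible HSP70 genes were above their mirrored band deep in the zone at 3 days, on few UMIs. Hspa1b had 26 UMIs there (24.1 CPM, 15.8 to 35.3) and 4 UMIs in the mirrored band (1.72 CPM, 0.469 to 4.41) (log2 ratio 3.66, 2.28 to 5.79). These 26 UMIs came from 20 bins in 15 tiles, with at most 5 in a bin. Hspa1a had 21 UMIs in each area, which is 19.5 CPM (12.1 to 29.8) against 9.04 CPM (5.60 to 13.8) and a log2 ratio of 1.11 (0.16 to 2.05). Near the border Hspa1a was below its mirror, at 5.29 CPM against 9.86 CPM (log2 ratio -0.88, -1.70 to -0.15). In the 4 bands outside at 3 days the intervals of both genes included 0. In partnered bins they left it out for Hspa1b at 0.90 (0.12 to 1.76, 43 and 20 UMIs) in the first 250 µm and at 1.12 (0.13 to 2.30, 31 and 11 UMIs) from 250 to 500 µm, and for Hspa1a at 0.63 (0.08 to 1.21) in the first. At 28 days the deepest band held 14 UMIs of Hspa1a and 9 of Hspa1b, with intervals of both ratios that included 0, and of the 6 bands the farthest was the only one whose interval for Hspa1b left out 0 (10.5 against 6.04 CPM, log2 ratio 0.79, 0.27 to 1.34). In partnered bins that interval included 0 (0.48, -0.29 to 1.28), and the first band outside the zone was at -0.96 (-1.80 to -0.21). Of the zone's UMIs at 3 days, 24 of 42 for Hspa1a and 28 of 57 for Hspa1b lay in the 149 tiles that carried no region signature. These were 25.8% of its 578 tiles. The UMIs were clumped, and the 10 tiles with most of them held 42.9% for Hspa1a and 42.1% for Hspa1b.

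**Figure D3:**
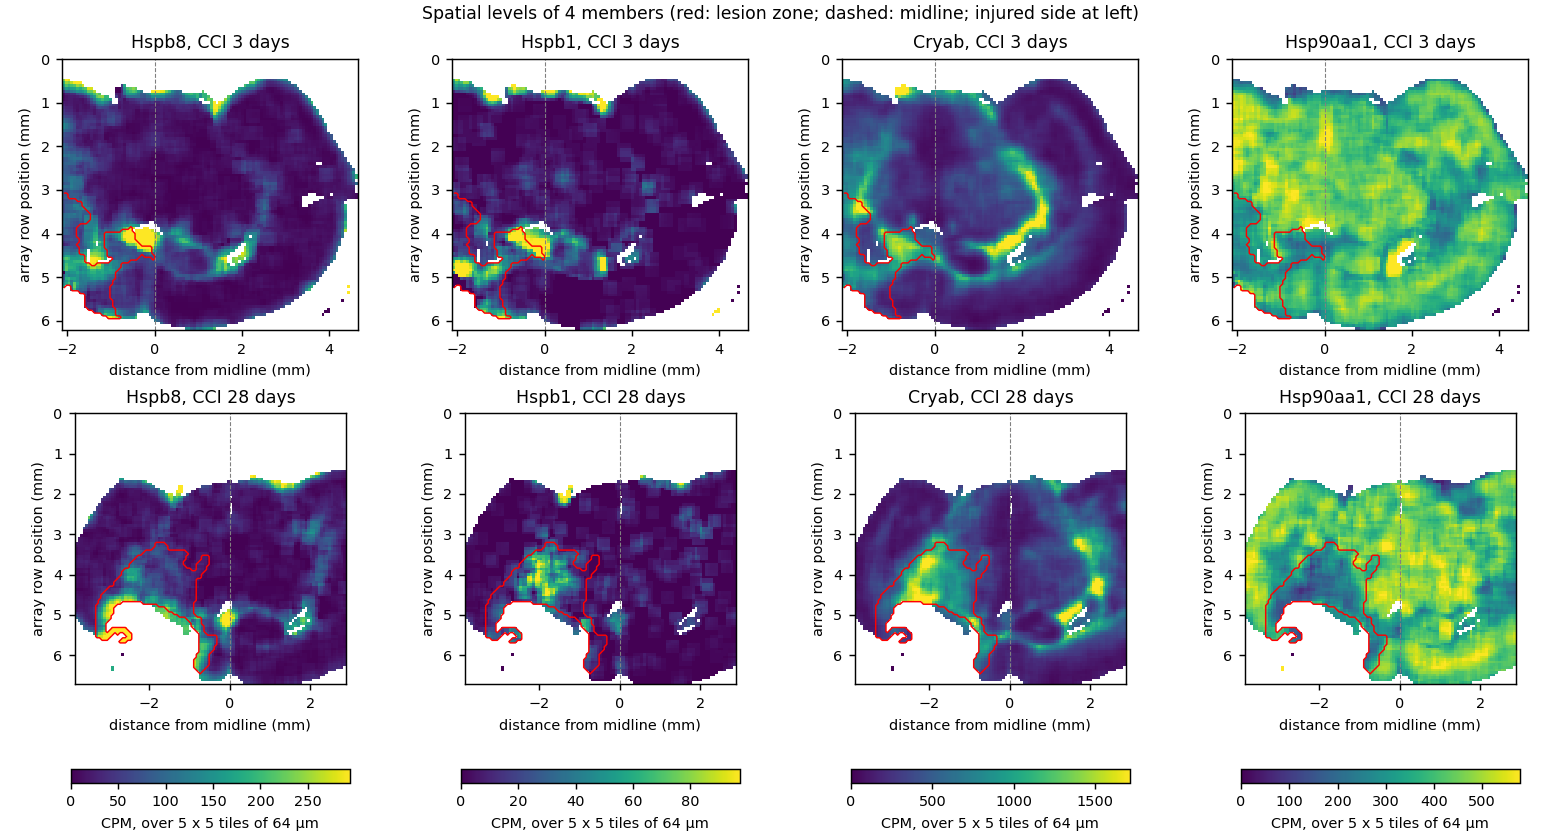
Maps of CPM, smoothed over 5 by 5 tiles of 64 µm, for Hspb8, Hspb1, Cryab and Hsp90aa1 at 3 days (top) and 28 days (bottom), on axes in mm from the midline and down the array; each gene has one colour scale for both sections, capped at its 99th percentile. The injured side is at the left of the dashed midline and the red line outlines the lesion zone, which reaches the edge of the array at 3 days. Hspb8 and Hspb1 are high in and beside the zone and along the surface of the brain, Cryab follows the white matter on both sides, and Hsp90aa1 is low in the zone at 28 days (272 CPM against 439 CPM in the mirrored area).

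In the opposite hemisphere the members had their own anatomy. Tiles were named by 14 lists of region markers, and a member counted as regional when it was at least 2-fold over its section in 1 region or more. This held for 6 of the 10 members at 3 days and 7 of the 10 at 28 days, near the background of 51.4% and 50.6% of all genes. Cryab was a white matter gene, at 1124 CPM (5378 UMIs) there at 3 days and 1133 CPM (4596 UMIs) at 28 days, against 287 and 313 CPM over the sections. It was at 40.7 and 74.6 CPM in the CA1 pyramidal layer of the hippocampus.

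Hspb8, Hspb1 and Bag3 were high at the surfaces of the brain. In meninges, Hspb8 was at 263 CPM (449 UMIs) at 3 days and 179 CPM (88 UMIs) at 28 days, and in choroid plexus, which makes cerebrospinal fluid, at 252 CPM and 205 CPM (133 UMIs at 28 days). In the thalamus it was at 6.73 and 5.71 CPM. Hspb1 was at 66.1 CPM (113 UMIs) and 40.7 CPM (20 UMIs) in meninges, and at 1.58 and 1.06 CPM in the upper cortical layers. Bag3 was at 71.4 CPM (122 UMIs) and 54.9 CPM (27 UMIs) in meninges, and at 23.4 and 23.7 CPM in white matter. Hspa5 was highest in choroid plexus as well, at 191 CPM (97 UMIs) and 136 CPM (88 UMIs), against 61.9 and 54.9 CPM over the sections.

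The inducible HSP70 genes were highest in layers rich in neurons and in meninges. Hspa1b was at 27.1 CPM (99 UMIs) in the CA1 pyramidal layer at 3 days and at 12.97 CPM (12 UMIs) at 28 days, and at 15.6 CPM (158 UMIs) and 13.3 CPM (63 UMIs) in the upper cortical layers. In the striatum it was at 1.67 CPM (6 UMIs) and 2.49 CPM (8 UMIs). Hspa1a was at 21.1 CPM (26 UMIs) in the CA3 pyramidal layer at 28 days and at 12.5 CPM (33 UMIs) at 3 days. In meninges at 3 days Hspa1a was at 18.1 CPM (31 UMIs) and Hspa1b at 16.4 CPM (28 UMIs). Hsph1 was at 284 CPM in the thalamus and 283 CPM in CA3 at 3 days, and at 135 CPM in white matter and 56.2 CPM in meninges. Hsp90aa1 was highest in ependyma, the lining of the ventricles, at 780 CPM (618 UMIs) and 634 CPM (262 UMIs), and lowest in meninges, at 162 and 240 CPM. Dnajb1 lay between 25.9 and 50.0 CPM over the regions at 3 days, the smallest span of the 10 members in that section as a ratio of highest to lowest.

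**Figure D4:**
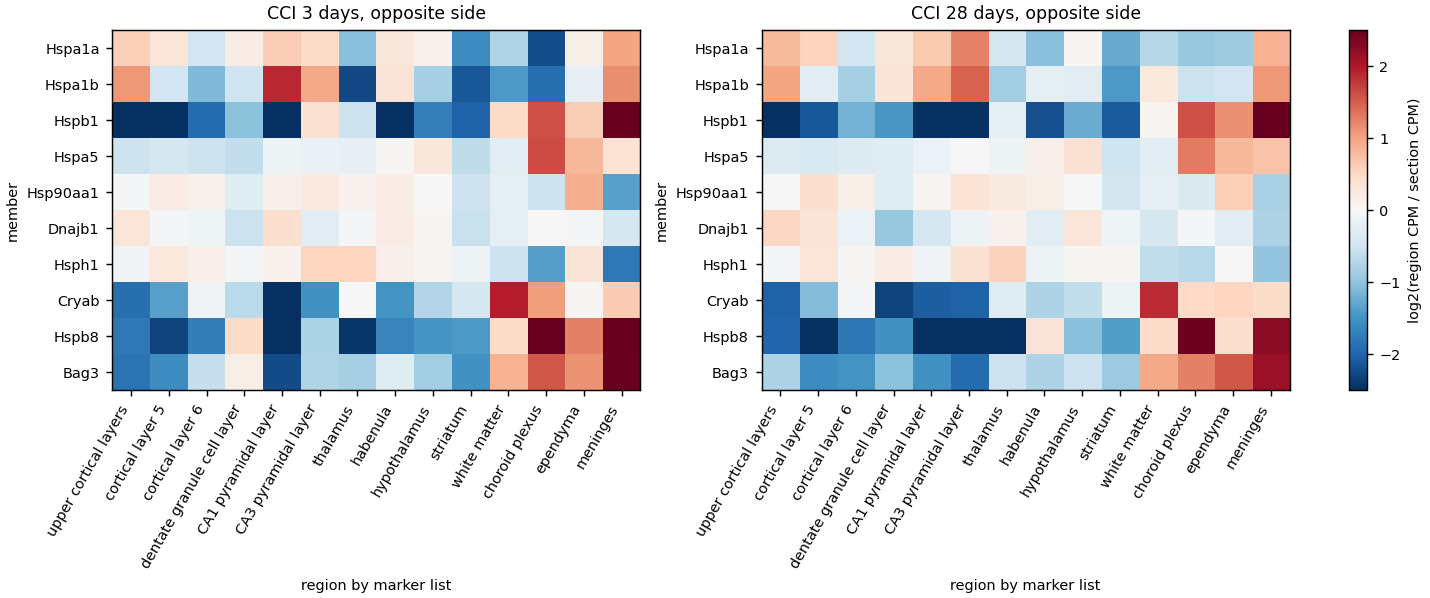
Log2 of the level of each member in a region of the opposite side over its level in the whole section, at 3 days (left) and 28 days (right). Red is higher and blue lower than the section, and the scale ends at 2.5 in each direction. Cryab is high in white matter (1124 and 1133 CPM), and Hspb1, Hspb8 and Bag3 in meninges and choroid plexus.

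Tiles of like signature were then compared within each section, since more of the zone than of its mirror image carried a white matter signature. A signature is a share of UMIs, so such tiles need not hold the same cells. Neuronal markers in white matter tiles summed to 1481 CPM in the zone against 5113 CPM opposite at 3 days, and 2384 against 5272 CPM at 28 days. In striatum tiles the sums were 4081 against 7241 CPM and 4531 against 6450 CPM. Their part in the member values was not tested. In white matter tiles of the zone at 3 days (290 tiles, against 841 on the opposite side), 4 of the 10 members were 2-fold higher (Hspb1, Hspa1b, Hspb8 and Bag3), where 10.7% of all genes were. Hspb1 was at 53.1 CPM (124 UMIs) against 12.5 CPM (60 UMIs) (log2 ratio 2.07, 1.63 to 2.55), and Hspb8 at 126 CPM against 49.5 CPM (log2 ratio 1.35, 1.10 to 1.60). Hspa1b rested on 17 and 13 UMIs (1.41, 0.29 to 2.58). Hspa1a, with which its UMIs may be mixed, had 7 and 26 UMIs in the same tiles (-0.79, -2.31 to 0.38). The count of 4 thus depends on how the UMIs of the pair were assigned. Cryab was level, at 1194 CPM against 1124 CPM (0.09, 0.02 to 0.15). At 28 days (439 and 767 tiles) 2 of the 10 were 2-fold higher, against 9.19% of all genes: Hspb1 at 43.6 CPM (96 UMIs) and 6.90 CPM (28 UMIs) (log2 ratio 2.64, 2.04 to 3.32), and Hspb8 at 1.02 (0.75 to 1.30). Cryab again stood close to the opposite side, at 1279 CPM against 1133 CPM (0.17, 0.11 to 0.24).

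In grey matter Cryab did differ. The 53 tiles of the zone with a striatum signature at 3 days had a median distance of 1.95 mm from the midline, against 2.98 mm for those of the opposite side, and no mirrored tile carried that signature, so these are tiles matched by markers and not by place. All 6 striatum markers were above the section there, for example Ppp1r1b, which encodes DARPP-32, at 1069 CPM against 196 CPM over the section and 2286 CPM in the striatum tiles opposite, and these markers chose the tiles. In the striatum tiles of the zone Cryab was at 556 CPM (364 UMIs) against 212 CPM (759 UMIs) at 3 days (log2 ratio 1.39, 1.21 to 1.58). Hspb8 was at 80.9 CPM against 13.4 CPM (2.59, 2.01 to 3.19) and Bag3 at 39.7 CPM against 4.46 CPM (3.14, 2.20 to 4.15), so that 3 of the 7 members with at least 20 UMIs were 2-fold higher, against 11.8% of all genes. At 28 days 2 of 7 were, against 11.5%: Hspb8 at 2.45 (1.75 to 3.12) and Bag3 at 2.25 (1.11 to 3.30). Cryab had a log2 ratio of 0.72 (0.49 to 0.94) there. In these striatum tiles the oligodendrocyte markers summed to 5658 against 3220 CPM at 3 days and 3705 against 3873 CPM at 28 days, and the astrocyte markers to 5978 against 2568 CPM and 10232 against 2136 CPM. The thalamus was part of the zone at 28 days, with 110 tiles. There 4 of the 10 were 2-fold higher, against 8.88% of all genes, with log2 ratios of 2.36 (1.59 to 3.10) for Hspb8, 1.22 (0.36 to 1.97) for Bag3, 1.21 (0.09 to 2.15) for Hspb1 and 1.20 (1.06 to 1.34) for Cryab. Dnajb1 was 2-fold lower, as were 4.04% of all genes, at 17.7 CPM (17 UMIs) against 37.3 CPM (242 UMIs) (log2 ratio -1.04, -1.88 to -0.37).

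**Figure D5:**
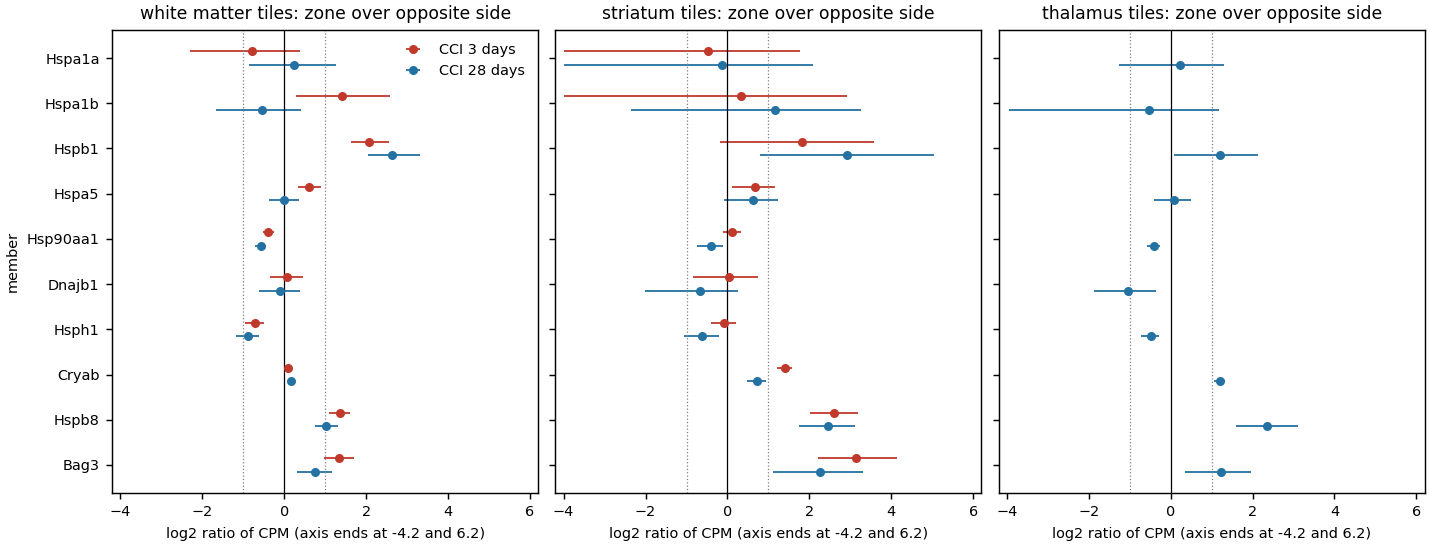
Log2 ratio of CPM for each member between tiles of the lesion zone and opposite-side tiles of the same region signature. Panels are white matter, striatum and thalamus (28 days only), at 3 days (red) and 28 days (blue), with 95% intervals for counting error. Cryab lies at 0.09 and 0.17 in white matter and at 1.39 and 0.72 in striatum, and Hspb8 lies above 1 in every panel and section shown.

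Astrocyte markers were higher in the same tiles. In white matter tiles of the zone, which were picked by oligodendrocyte genes, the summed astrocyte markers stood at 7001 CPM against 4002 CPM at 3 days and 11929 CPM against 3928 CPM at 28 days. In the thalamus tiles at 28 days they stood at 6681 against 2032 CPM, and oligodendrocyte markers at 4726 against 3218 CPM. Over the whole zone, 3 of 8 astrocyte markers were 2-fold higher at 3 days and 6 of 8 at 28 days, and the fibroblast markers summed to 527 against 79.7 CPM and 376 against 43.6 CPM (5 and 6 of 6 were 2-fold higher). Over the whole zone the endothelial markers stood at 529 against 198 CPM at 3 days (4 of 6 were 2-fold higher) and 374 against 270 CPM at 28 days (0 of 6), and the mural cell markers at 831 against 195 CPM (5 of 7) and 452 against 282 CPM (3 of 7). In white matter tiles the endothelial values were 413 against 382 CPM and 384 against 354 CPM, and the mural ones 686 against 448 CPM and 428 against 415 CPM. In striatum tiles the endothelial markers stood at 522 against 260 CPM and 245 against 214 CPM, and the mural ones at 768 against 290 CPM and 345 against 274 CPM. The fibroblast markers stood at 75.7 against 74.6 CPM and 72.2 against 67.8 CPM in white matter tiles. In striatum tiles they stood at 51.9 against 19.8 CPM and 44.8 against 16.8 CPM, and in thalamus tiles at 28 days at 22.9 against 37.6 CPM. None of these markers was at 0. Their part in the member values was not tested.

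Over all bins of each side of the array the differences were smaller. At 3 days Hspb1, Hspb8 and Bag3 were 2-fold higher on the injured side, 3 of the 10, with log2 ratios of 1.45 (1.27 to 1.62), 1.38 (1.30 to 1.47) and 1.10 (0.96 to 1.25), where 10.5% of 16164 genes were 2-fold higher and 2.12% 2-fold lower. At 28 days Hspb1 (1.21, 0.96 to 1.48) and Hspb8 (1.23, 1.12 to 1.34) were, 2 of the 10, against 6.43% and 0.582% of 15640 genes. No member was 2-fold lower on the injured side in either section. The array held 39116 bins of the injured side and 80501 of the opposite side at 3 days. With only the bins that had a mirrored partner, 1 member passed (Hspb8, 1.06), where 5.91% of all genes did, and Hspb1 and Bag3 were at 0.78 and 0.67. With the zone and the mirrored area left out, none passed at 28 days, when 1.37% of all genes did, and where Hspb8 was at 0.52, Hspb1 at 0.30 and Bag3 at -0.042, whereas at 3 days they were at 1.30, 1.26 and 0.73. Bag3 at 3 days was also just within 2-fold with TMM scaling (0.97), and it passed in 4 of 7 alternatives.

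Other genes of the same systems were described from 8 lists of 82 genes, of which 79 had at least 20 UMIs over the zone and the mirrored area in each section. At 3 days 7 of them were 2-fold higher in the zone and 4 lower, with a median log2 ratio of 0.14, and at 28 days 6 were higher and 2 lower, with a median of -0.09. Each of these counts is a smaller share than that of all genes, of which 17.4% were higher and 8.84% lower at 3 days and 16.5% and 8.16% at 28 days. The chaperones of the endoplasmic reticulum had a median log2 ratio of 0.87 at 3 days, with 5 of 15 2-fold higher and the whole list between 0.16 and 2.34, and 0.51 at 28 days, with 3 of 15, which is near the 16.5% of all genes. Serpinh1, the collagen chaperone HSP47, was at 145 CPM against 28.6 CPM at 3 days (2.34, 2.13 to 2.56) and, at 28 days, at 70.6 and 19.4 CPM (1.86, 1.60 to 2.13). Sdf2l1, a cofactor of Hspa5, had log2 ratios of 1.59 and 1.87, and the disulfide isomerase P4hb 1.61 at 3 days. The 10 genes of the unfolded protein response, the programme that switches on Hspa5, had a median of 0.31 at 3 days, with 1 higher and 1 lower, and 0.23 at 28 days, with 1 higher. Of these genes, named after their values were seen, Trib3 was the higher one (2.39 and 1.32, on 31 and 9 UMIs at 3 days and 32 and 14 at 28 days). Asns, asparagine synthetase, was the lower one at 3 days (-1.13, -1.33 to -0.94). The transcription factors Xbp1 and Atf6 were at 0.49 (0.35 to 0.62) and -0.57 (-0.79 to -0.35) at 3 days, and Herpud1 at -0.35 (-0.54 to -0.16). The other genes of the list were then at 0.69 (Ern1), 0.41 (Ddit3), 0.37 (Atf4), 0.24 (Eif2ak3) and -0.82 (Chac1). At 28 days Xbp1, Atf6 and Herpud1 were at 0.23, -0.22 and 0.03, Ddit3 at 0.70 and Atf4 at -0.55. Ern1, Eif2ak3, Chac1 and Asns were at 0.88, 0.47, 0.23 and -0.84 in that section.

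The cytosolic chaperones had a median of -0.47 at 3 days and -0.30 at 28 days, with 2 of 17 2-fold lower in each section, near the 8.84% and 8.16% of all genes. The lowest ratios were those of Hspa12a, a divergent HSP70 (-1.81 and -1.36), and of Dnajc6, which is auxilin, the J-domain protein of neuronal clathrin uncoating (-1.64 and -1.19). The co-chaperones of HSP70 and HSP90 held 0 of 15 genes past 2-fold in either direction in both sections, with medians of -0.17 and -0.36. The same was 0 of 8 for the mitochondrial chaperones and 0 of 8 for the TRiC chaperonin. Of the other small heat shock proteins 2 were measured, of which 1 was higher at 3 days and 2 at 28 days, and of the 4 heat shock factors 1 was lower at 3 days and 0 at 28 days. Hspb6, a further small heat shock protein, was at 66.8 against 26.9 CPM at 3 days (1.31) and 50.4 against 7.39 CPM at 28 days (2.76, 2.37 to 3.19). Hsf4, a heat shock factor, was lower at 3 days (14.3 against 39.5 CPM, -1.46), and Dnaja1, a J-domain protein, was among the 3 lowest at 28 days, at -0.999 (-1.11 to -0.89).

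Which genes shared the members' pattern was described by correlation of log2 levels over tiles of 8 by 8 bins, where neighbouring tiles share depth and tissue. Over the 1287 tiles of the opposite side at 3 days, Cryab was most like Fth1 (r = 0.85), Trf (0.84) and Cldn11 (0.83), and over 894 tiles at 28 days like Trf, Cldn11 and Car2 (0.84, 0.84 and 0.83). In the zone it was most like Qki and Mbp at 3 days (both 0.83 over 133 tiles) and like Gatm, Gna12 and Trf at 28 days (0.75, 0.71 and 0.71 over 213 tiles). Hspb8 was most like Aebp1, Clu and Slc13a4 on the opposite side at 3 days (0.62, 0.62 and 0.61). In the zone the genes most like it included Id3 and Plpp3 at 3 days (0.53 and 0.48) and like Ahnak, Vim and S100a4 at 28 days (0.57, 0.53 and 0.51). Hsph1 was most like Uchl1 on the opposite side in both sections (0.62 and 0.58), followed by Map1b and Atp6v1b2 at 3 days and Eno2 and Ptprn2 at 28 days, and Hsp90aa1 was most like Map1b at 28 days (0.57).

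Among the members the highest r was 0.43, for Hsp90aa1 and Hsph1 on the opposite side at 3 days. The lowest was -0.40, for Hsph1 and Hspb8 in the same area. Hsp90aa1 and Hsph1 had 0.42 on the opposite side at 28 days, and 0.23 at 3 days and 0.20 at 28 days within the zone. Hspb1 and Hspb8 had 0.41 and 0.19 on the opposite side, and 0.30 at 3 days and 0.0068 at 28 days within the zone. The members Hspa1a, Hspa1b, Hspb1, Bag3 and Dnajb1 had few UMIs per tile, and their correlations are no finding.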

How the data were processed

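The deposited files were, per section, a matrix of UMI counts per gene and 16 µm bin with its gene and bin lists. The authors made these counts with Space Ranger (4.0.1 per the file headers) from Visium HD libraries of 10 µm sections and the mouse probe set v2.0, and the labels list mm10; the counts are raw. Only bins of at least 100 UMIs were used, which dropped 1.93% at 3 days and 2.15% at 28 days. Midlines were set at array columns 130 and 240. Patches of the zone had at least 25 tiles of 4 by 4 bins, and shares were smoothed over 5 by 5 tiles. Log2 ratios compare UMI sums scaled to the total of each area with 0.5 UMI added. Their intervals are exact conditional binomial and those of CPM exact Poisson. A gene counted as higher or lower past 2-fold with at least 20 UMIs. Regions needed a list fold of 2 and 10 list UMIs. Likeness used log2(CPM + 10), tiles with 10000 UMIs and genes with 500 UMIs. The genes named are all members, the 3 most like each member, and of the 8 pathway lists the 3 highest and 3 lowest zone ratios with at least 200 UMIs. Some genes this rule names are not reported here. Members and lists were chosen with earlier results of these data known. The ratios were tested on simulated data. Tools were Python 3.11.15, scipy 1.17.1, Biopython 1.88 and edgeR 4.0.16 (TMM only).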

Additional observations from a re-analysis of the deposited data

Results flagged for a closer look

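The array held 39116 bins of the injured side and 80501 of the opposite side at 3 days, and 49478 and 53838 at 28 days. Over all of these bins Hsp90aa1 had a log2 ratio of injured over opposite side of 0.030 (0.002 to 0.06) at 3 days. Over 7 alternatives that ratio lay between -0.11 and 0.094. At 28 days the ratio was -0.093 (-0.12 to -0.06), of opposite sign. The difference was not tested, since each time point is 1 section. At 3 days the ratio was -0.11 with TMM scaling and -0.071 with UMIs per bin, which move the log2 ratios of all genes alike, by -0.14 and -0.10, so the sign of so small a ratio follows the scaling, and at 28 days it was 0.020 with the zone and its mirrored area left out.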

How the results depend on the processing

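No paired test over animals was possible because each time point is 1 section, and no test was run. Of 124 recomputed counts, 105 were within 1.5 times the main count. Of 420 recomputed member ratios 300 lay within the counting interval of the main value, and none past 2-fold changed sign. These tallies include settings that could not change a member value. The zone was 1 patch in each section, so taking only the largest patch repeated the main zone. All members had at least 20 UMIs, so a gene minimum of 1 UMI left their counts as they were. In the zone at 3 days, 4 higher and 0 lower became 1 and 2 with UMIs per bin, 2 higher with the opposite side weighted to the zone's regions, and 6 and 1 with a 1.5-fold threshold, which 28.7% and 16.8% of all genes passed. At 28 days the count of 1 lower (Hsph1) became 3 with 1.5-fold (18.1% of all genes) and 0 with the whole opposite side, the midline 10 bins away from the injured side, the 95th percentile, the region weighting, or without meninges, choroid plexus and ependyma. Over the 13 alternatives for the zone ratio, Bag3 lay between 1.34 and 2.54 and Hspb1 between 0.97 and 2.83 at 3 days. Hspb8 then lay between 0.80 and 2.30 and Cryab between 0.27 and 1.70, each past 2-fold in 11 of them. At 28 days Hspb1 lay between 1.70 and 3.15, Hspb8 between 1.66 and 3.34 and Bag3 between 0.88 and 1.84. Cryab lay between 0.47 and 1.36 there and passed 2-fold in 2. For the sides, 3 higher at 3 days became 1 with mirrored partners only, and 2 at 28 days became 0 without the zones. Of the pathway genes, 7 higher and 4 lower became 2 and 15 with UMIs per bin at 3 days, and 2 lower became 6 at 28 days; this scaling shifts all genes alike, by -0.64 and -0.28. Tiles of 64 µm listed 2 of 12 and 12 of 27 of the same member and gene pairs at 3 days (zone, opposite side) and 2 of 12 and 4 of 18 at 28 days. TMM scaling shifted every zone ratio by -0.13 at 3 days. The region weighting, the mirrored partners and the tissue left out were chosen after the data were seen. The cause of these changes was not tested. Depth limits Hspa1a and Hspa1b, with 37 to 57 UMIs in each zone.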
